A study of Mus musculus with 6 samples.

Results

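Matrix metalloproteinases (MMPs) are zinc-dependent enzymes that cut collagens, laminins and other proteins of the extracellular matrix, and tissue inhibitors of metalloproteinases (TIMPs) block them by binding the active site. Most MMPs are secreted as inactive precursors, a few such as Mmp14 are held in the cell membrane, and the balance of enzyme and inhibitor limits how much matrix is removed. In skin, keratinocytes that move over a wound make several of these enzymes, while dermal fibroblasts and macrophages make others. Many MMP genes have a binding site for the transcription factor AP1 close to their start. The 8 genes described here were *Mmp3*, *Mmp9*, *Mmp10*, *Mmp13*, *Mmp14*, *Timp1*, *Timp2* and *Timp3*, found by name among the 55367 gene names of the count table. All 8 were among the 14916 genes with enough counts to test.

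The data were RNA-sequencing counts from primary keratinocytes isolated from the skin of day 2 pups of a mixed C57BL/6 and 129/Sv background. All cells, controls included, carried the genotype *Ppp1r13l* flox/flox;Cre+ERT, in which exon 8 of *Ppp1r13l*, the gene encoding iASPP, lies between loxP sites and a Cre recombinase expressed from the ubiquitously active *Rosa26* locus is switched on by tamoxifen. Cells of each of 3 batches were shared between a dish that received tamoxifen (iASPP KO, n = 3) and one that did not (iASPP WT, n = 3), so the drug and the deletion cannot be told apart. The concentration of tamoxifen is 1 mM in the labels and 1 μM in the study's methods. Medium was exchanged at 24 h, and culture then went on for 4 days. The labels do not say how many pups went into a batch. The targeted gene itself was counted 320 times in iASPP KO and 697 times in iASPP WT of batch 1, 395 and 1100 times in batch 2, and 139 and 472 times in batch 3.

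Totals ran from 20202517 to 25157117 counts per library, where 3 counts equal 0.119 to 0.149 CPM (counts in a library scaled to 1000000), a floor for counting error only. Levels are given below as CPM scaled by the TMM method, which sets library sizes so that most genes keep the same level. Fold changes are log2 values, positive where iASPP KO was higher, from an edgeR quasi-likelihood fit with batch and condition, and p-values were adjusted over all genes tested by the Benjamini-Hochberg method with a threshold of 0.05. Of all genes tested, 4.12% passed, 2.17% higher and 1.95% lower in iASPP KO (323 and 291 genes, or 295 and 455 when libraries were scaled by their totals alone). Summed over 8 markers of keratinocytes, among them *Krt14* and *Krt5*, the level was 26532 to 29415 CPM. Markers of other cells were present too, and batch 3 stood apart, as given with the results below.

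*Mmp10* rose and *Timp3* fell in iASPP-KO keratinocytes, and the other 6 genes did not pass the test. These are 2 of 8 genes, 1 in each direction, beside the 2.17% and 1.95% of all genes called in those directions. The log2 fold change was above 0 in every batch for *Mmp3*, *Mmp10*, *Mmp13* and *Timp1* and below 0 in every batch for *Timp3*. That makes 5 of 8 with 1 direction throughout, compared with 39.3% of all genes tested. Levels of the 2 conditions did not overlap for *Mmp10* and *Timp3*, compared with 10.7% of all genes tested. Since these are bulk samples, fewer cells of a type and less RNA per cell cannot be told apart.

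**Figure D1:**
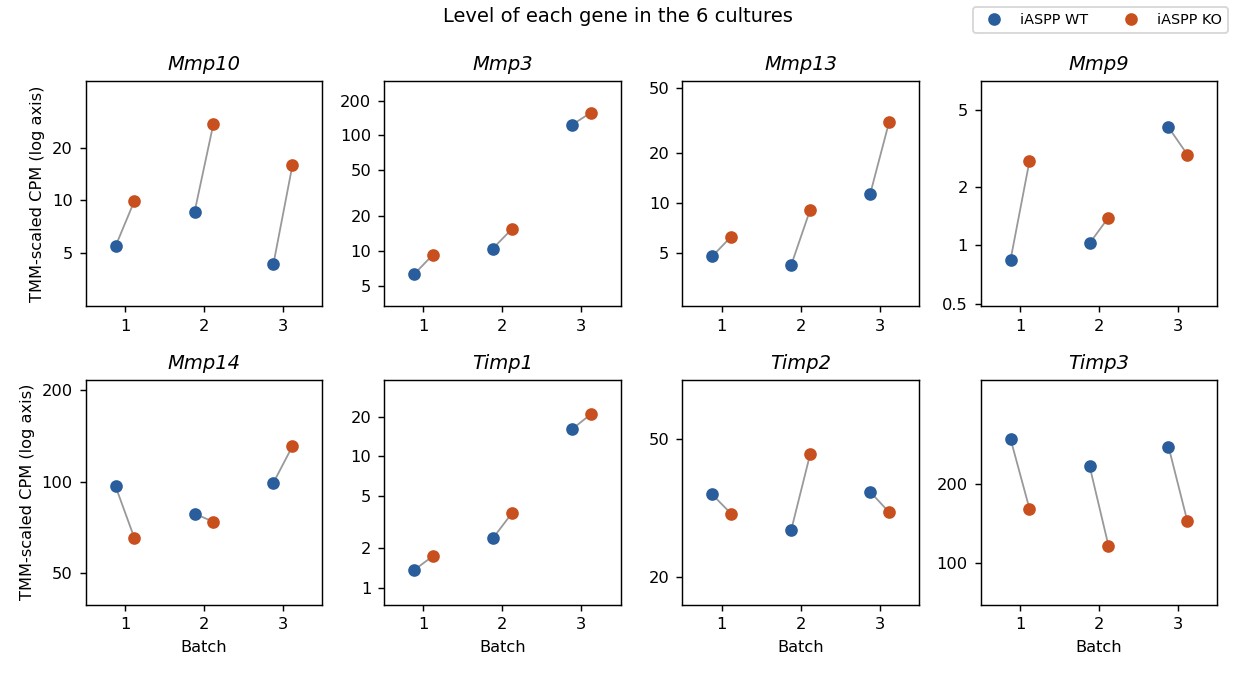
TMM-scaled CPM (log axis, a separate scale for each gene) of the 8 genes in iASPP WT (blue) and iASPP KO (orange) cultures of batches 1, 2 and 3, with a grey line joining the cultures of a batch. *Mmp10* was higher and *Timp3* lower in the iASPP-KO culture of every batch, while *Mmp3* and *Timp1* were far higher in both cultures of batch 3 than in any other.

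Stromelysins are MMPs that cut many matrix proteins and activate other MMPs, and *Mmp10* (stromelysin-2) is known from keratinocytes at the edge of wounds. *Mmp10* (ENSMUSG00000047562, chromosome 9, 7502352 to 7510240, GRCm38) stood at 9.93, 27.6 and 15.9 CPM in iASPP KO of batches 1, 2 and 3, from 223, 614 and 374 counts. Its levels in iASPP WT were 5.43, 8.53 and 4.32 CPM, from 116, 208 and 97 counts. Every iASPP-KO culture lay above every iASPP-WT culture, and the gap was widest in batches 2 and 3. The iASPP-KO mean was 17.8 ± 8.97 CPM (SD, n = 3) and the iASPP-WT mean 6.10 ± 2.18 CPM (SD, n = 3). The fitted log2 fold change was 1.49 (standard error 0.25, 95% confidence interval 0.92 to 2.05, adjusted p = 0.0119), a 2.80-fold rise. Within batches 1, 2 and 3 it was 0.86, 1.68 and 1.86. Exact counting intervals, which cover counting error only, were 0.54 to 1.21 in batch 1 and 1.46 to 1.93 in batch 2. The call was lost without batch 2 (log2 fold change 1.38, adjusted p = 0.0905).

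*Mmp3* (stromelysin-1, ENSMUSG00000043613) is a close relative that dermal fibroblasts also make. *Mmp3* lies near *Mmp10* on the same strand (chromosome 9, 7445822 to 7455975), with *Mmp1a* between them. It had 9.22, 15.4 and 157 CPM in iASPP KO and 6.23, 10.5 and 123 CPM in iASPP WT. Each iASPP-KO culture was above the iASPP-WT culture of its batch, but both batch 3 cultures exceeded the other 4 many times over, so the conditions overlapped. The log2 fold change was 0.48 (SE 0.13, 95% confidence interval 0.19 to 0.78) and missed the threshold with an adjusted p of 0.0783. It was 0.56, 0.55 and 0.35 in batches 1, 2 and 3, a narrower range than that of *Mmp10*. Of the 42-base windows of the longest *Mmp10* transcript, as long as a read, 9.76% occur also in *Mmp3*, and 10.6% of *Mmp3* windows occur in *Mmp10* or in 2 unnamed gene models (*Gm15242* and *Gm15244*). Reads from such windows align to more than 1 place, and their part in the counts of these genes was not tested.

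*Mmp13* encodes collagenase-3, the main collagenase of the mouse that cuts fibrillar collagens. It (ENSMUSG00000050578, chromosome 9, 7272514 to 7283331) had 6.28, 9.11 and 31.0 CPM in iASPP KO and 4.78, 4.23 and 11.4 CPM in iASPP WT. The iASPP-KO culture was higher within each batch, although the lowest iASPP-KO value lay under the iASPP-WT value of batch 3. With a log2 fold change of 1.00 (SE 0.26, 95% confidence interval 0.43 to 1.58) the gene stayed just short of the threshold, with an adjusted p of 0.0623. The difference was 0.39 in batch 1, where its counting interval was 0.016 to 0.78, 1.09 in batch 2 and 1.44 in batch 3. The call of *Mmp13* turned on the setting, since it passed the threshold in DESeq2 (log2 fold change 1.00, adjusted p = 0.0290) and with edgeR's robust dispersion (adjusted p = 0.0418), without the filter on low counts (0.00426) or without batch 1 (1.29, 0.0241).

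**Figure D2:**
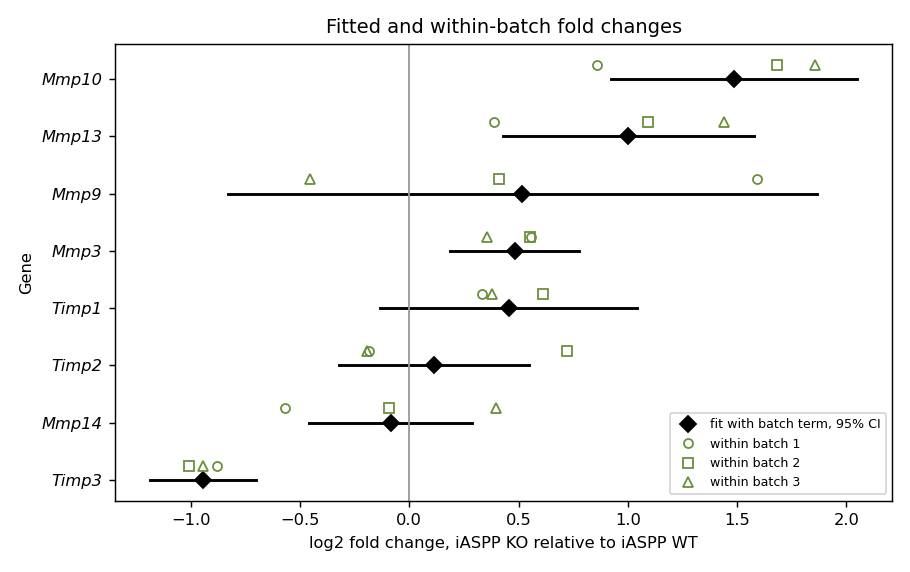
Fitted log2 fold change (iASPP KO over iASPP WT) with its 95% confidence interval (black) and the log2 fold change within batches 1, 2 and 3 (green symbols) for the 8 genes. The interval lies above 0 for *Mmp10*, *Mmp13* and *Mmp3* and below 0 for *Timp3*, and only *Mmp10* and *Timp3* passed the adjusted threshold.

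*Mmp10*, *Mmp3* and *Mmp13* belong to a cluster of 10 MMP genes that spans 427.1 kb of chromosome 9. Of the 7 genes of the cluster that were tested, *Mmp10* was the only one called. *Mmp12*, the macrophage elastase, had 3.92, 3.19 and 115 CPM in iASPP KO and 5.76, 1.15 and 34.2 CPM in iASPP WT. Its direction differed between batches, and its log2 fold change of 0.93 (SE 0.38) had an adjusted p of 0.244, although it passed without batch 1 or without the filter on low counts. *Mmp1b*, *Mmp8* and *Mmp27* had at most 6.93 CPM in any library and log2 fold changes of 1.79 (SE 0.68), 1.83 (SE 1.44) and −1.38 (SE 0.83). *Mmp1a*, *Mmp20* and *Mmp7* were at or near 0 and were not tested.

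**Figure D3:**
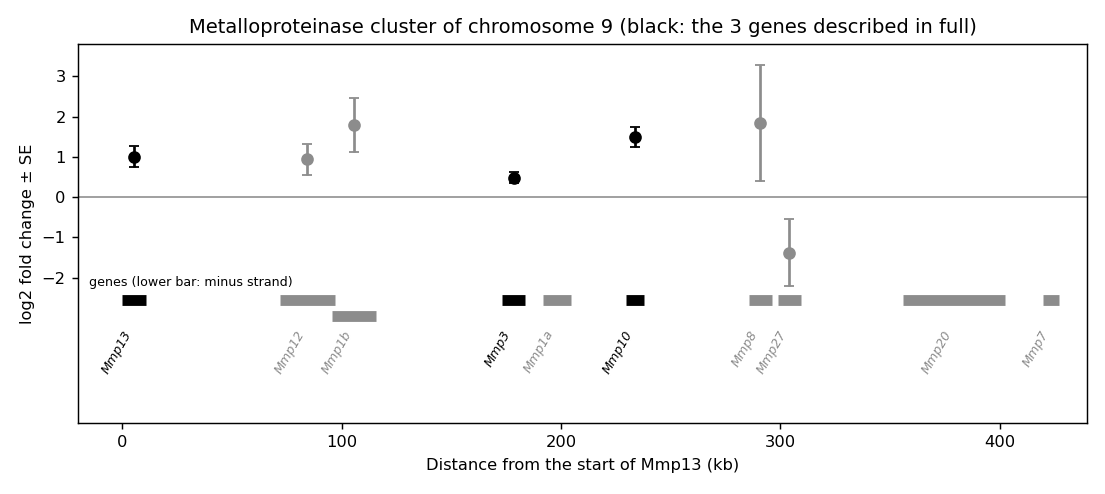
Fitted log2 fold change ± SE of the tested genes of the chromosome 9 cluster against distance from the start of *Mmp13* in kb, with a bar for the extent of each of the 10 genes. *Mmp13*, *Mmp3* and *Mmp10* (black) lie at 1.00, 0.48 and 1.49, and the other tested genes (grey) have wider errors.

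The sequence just before the RefSeq start (GRCm38.p6) is shown for these 3 genes because they are the members of the cluster among the 8 genes and were higher in iASPP KO of every batch. Of the other tested genes of the cluster, *Mmp1b* was also higher and *Mmp27* lower in iASPP KO of every batch. Capitals mark TGANTCA, the core of an AP1 site, which reads the same on both strands, and TATAAA on the strand of the gene.
Mmp10 (chr9:7502222-7502341, plus strand): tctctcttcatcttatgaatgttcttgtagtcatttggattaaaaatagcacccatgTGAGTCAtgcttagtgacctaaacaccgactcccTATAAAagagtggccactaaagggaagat
Mmp3 (chr9:7445702-7445821, plus strand): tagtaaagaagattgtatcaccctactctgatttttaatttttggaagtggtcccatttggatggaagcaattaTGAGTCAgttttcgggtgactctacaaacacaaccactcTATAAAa
Mmp13 (chr9:7272394-7272513, plus strand): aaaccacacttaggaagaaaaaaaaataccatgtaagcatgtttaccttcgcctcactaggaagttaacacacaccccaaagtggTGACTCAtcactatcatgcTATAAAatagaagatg

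The AP1-like letters began 63 bases before the start in *Mmp10*, 46 in *Mmp3* and 35 in *Mmp13*, and the TATAAA followed them in each gene. The first letters of TATAAA lay 29, 7 and 16 bases before the annotated starts. In the 250 bases before the start, TGANTCA occurs in 6.75% of 32851 promoters, TATAAA on the gene's strand in 7.59% and TATAAA on either strand in 12.4%. The 3 genes are related members of a cluster, so their promoters are not independent, and an excess over these shares was not tested. The 2 motifs do not share bases in these 3 promoters. Neither was found in the windows of *Mmp14*, *Timp1*, *Timp2* and *Timp3*, and the table had no entry for *Mmp9*. Of these, *Timp1* was also higher in iASPP KO of every batch. Whether *Mmp1b*, *Mmp27* and the other genes of the cluster have the motifs was not looked up. The window of *Timp2*, before a RefSeq start at 118355411 on the minus strand, ends at 118355661. It lies within the gene as counted, which reaches to 118355740. A match describes letters and not a bound site.

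*Mmp9* (gelatinase B, ENSMUSG00000017737, chromosome 2, 164940780 to 164955850) degrades denatured collagen and basement membrane collagen. Its 18 to 91 counts per library gave 2.72, 1.39 and 2.93 CPM in iASPP KO and 0.84, 1.03 and 4.05 CPM in iASPP WT. The iASPP-KO culture was higher in batches 1 and 2 and lower in batch 3. The log2 fold change of 0.52 (SE 0.61) had a 95% confidence interval of −0.83 to 1.86 and an adjusted p of 0.752.

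*Mmp14* encodes the membrane type 1 enzyme, which cuts collagen at the cell surface and, bound to TIMP2, activates pro-MMP2. *Mmp14* (ENSMUSG00000000957, chromosome 14, 54431612 to 54445364) had 65.1, 73.7 and 131 CPM in iASPP KO and 96.6, 78.5 and 99.3 CPM in iASPP WT. The iASPP-KO culture was lower in batch 1, similar in batch 2 and higher in batch 3, with log2 fold changes of −0.57, −0.091 and 0.40. Counting intervals of −0.67 to −0.47 in batch 1 and 0.32 to 0.48 in batch 3 lay on opposite sides of 0. With 1 culture per condition in a batch, a difference between batches could not be tested. The fitted value of −0.085 (SE 0.17, 95% confidence interval −0.46 to 0.29, adjusted p = 0.863) averages over batches with opposite signs.

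*Timp3* encodes an inhibitor that, unlike the other TIMPs, is held in the matrix and also blocks ADAM17 and several ADAMTS enzymes. *Timp3* (ENSMUSG00000020044, chromosome 10, 86300372 to 86349506) stood at 161, 117 and 144 CPM in iASPP KO of batches 1, 2 and 3, and at 296, 234 and 277 CPM in iASPP WT. All iASPP-KO values lay below all iASPP-WT values. The mean was 140.4 ± 22.3 CPM (SD, n = 3) with tamoxifen and 269 ± 31.7 CPM (SD, n = 3) without it, and the fitted fold was 0.52. The log2 fold change of −0.94 (SE 0.11, 95% confidence interval −1.18 to −0.70, adjusted p = 0.00193) was matched by −0.88, −1.01 and −0.94 in batches 1, 2 and 3. No other gene of the 8 varied so little between batches. The call held with each batch left out in turn, with log2 fold changes from −0.97 to −0.91. *Syn3*, which runs over *Timp3* on the other strand, had 8 to 45 counts per library against 2597 to 6317 for *Timp3*, and reads were counted by strand.

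The 80 bases before the earlier of the annotated starts of *Timp3* are shown as the counterpart of the cluster promoters, in lower case because neither motif was found in them.
Timp3 (chr10:86300292-86300371, plus strand): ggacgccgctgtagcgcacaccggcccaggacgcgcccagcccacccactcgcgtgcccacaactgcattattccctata

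In the 250 bases before its RefSeq start, *Timp3* had 65.6% G and C and 18 CG dinucleotides. *Timp2* had 68% and 21, in bases that lie within the gene as counted. *Mmp10*, *Mmp3* and *Mmp13* had 37.2%, 37.6% and 40.4% with 1 CG dinucleotide each, while the median of all promoters was 52.4% and 6.

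*Timp2* is the most widely expressed TIMP and takes part in the activation of pro-MMP2. *Timp2* (ENSMUSG00000017466, chromosome 11, 118301069 to 118355740) had 30.4, 45.1 and 30.7 CPM in iASPP KO and 34.6, 27.3 and 35.2 CPM in iASPP WT. It was higher in iASPP KO in batch 2 and lower in batches 1 and 3. The log2 fold change was 0.11 (SE 0.20, 95% confidence interval −0.32 to 0.55, adjusted p = 0.839). *Cep295nl*, which overlaps *Timp2* on the same strand, had 1 to 33 counts per library.

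*Timp1* encodes a secreted inhibitor that also binds pro-MMP9. *Timp1* (ENSMUSG00000001131, chromosome X, 20870166 to 20874735) had 1.74, 3.68 and 20.9 CPM in iASPP KO and 1.36, 2.38 and 16.1 CPM in iASPP WT. As with *Mmp3*, the iASPP-KO culture was higher in each batch and both batch 3 cultures stood far above the rest. The log2 fold change of 0.46 (SE 0.26, 95% confidence interval −0.13 to 1.04, adjusted p = 0.447) did not pass the threshold. *Timp1* lies within *Syn1* of the other strand, which had 0 to 4 counts per library.

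Both cultures of batch 3 exceeded the other 4 for 5 of the 8 genes, compared with 19.1% of all genes tested. The mean level in batch 3 relative to batches 1 and 2 was 13.6 for *Mmp3*, 8.09 for *Timp1*, 3.47 for *Mmp13*, 2.34 for *Mmp9* and 1.47 for *Mmp14*. It was 1.04 for *Timp3*, 0.959 for *Timp2* and 0.785 for *Mmp10*. The 3 genes with ratios nearest 1 included both genes that passed the test between conditions.

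Markers of fibroblasts were higher in batch 3 as well. All 12 of 12 fibroblast markers were higher in both batch 3 cultures than in the other 4, from 2.06 times for *Fbln2* to 48.6 times for *Lum*. Their summed level was 120.1, 118 and 770 CPM in iASPP KO of batches 1, 2 and 3 and 93.4, 114 and 963 CPM in iASPP WT. No fibroblast marker was at 0 in every library. Between conditions 2 of the 12, *Col1a2* and *Col3a1*, were lower in iASPP KO, beside 1.95% of all genes tested. The other 10 did not pass. Among them *Pdgfra*, *Twist2*, *Fbln2* and *Vim* had log2 fold changes above 0, at 0.81 (SE 0.34), 0.50, 0.29 and 0.16. The rest were below 0, so the markers did not share a direction. Of the 10 macrophage and leukocyte markers, 4 were higher in both batch 3 cultures than elsewhere, among them *Lyz2*, with 59.1 and 49.6 CPM in batch 3 and at most 4.81 CPM in the other libraries. *Cd68* and *Csf1r* were lower in batch 3, at 0.263 and 0.200 times their levels in batches 1 and 2. Of the 6 macrophage and leukocyte markers tested, 1 passed, beside 2.17% of all genes tested that were higher in iASPP KO. This was *Csf1r*, higher in iASPP KO (log2 fold change 1.11, SE 0.22, adjusted p = 0.0206). The summed level of the 7 melanocyte markers was 431 to 1065 CPM in iASPP KO and 368 to 1126 CPM in iASPP WT, and none of the 7 passed the test. The 6 endothelial markers summed to 4.16 to 21.5 CPM, and none of the 4 tested passed. The part of other cell types in the levels of the MMP and TIMP genes was not tested.

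**Figure D4:**
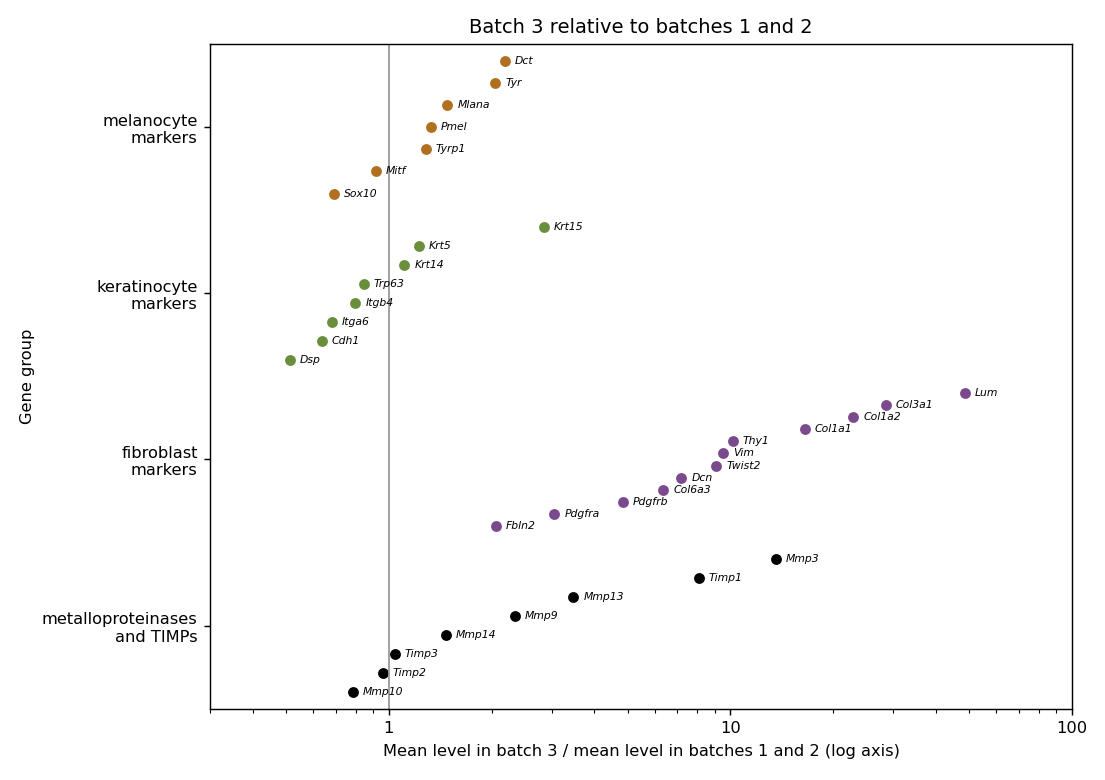
Ratio of the mean level in the 2 cultures of batch 3 to that in the 4 cultures of batches 1 and 2 (log axis) for the 8 genes and for markers of fibroblasts, keratinocytes and melanocytes, 1 point per gene. *Mmp3* (13.6), *Timp1* (8.09), *Mmp13* (3.47) and *Mmp9* (2.34) lie in the range of the fibroblast markers (2.06 to 48.6), while *Mmp10*, *Timp2* and *Timp3* lie near 1. The keratinocyte marker *Krt15* (2.85) and the melanocyte marker *Dct* (2.19) lie in that range too. Macrophage and leukocyte markers, not drawn, lay on both sides of 1 (*Lyz2* 19.7, *Cd68* 0.263).

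To set the genes beside each other, CPM were divided by the gene's length in kilobases, which gives a level per kilobase. This length covers all exons and can exceed that of the longest transcript. It was 8144 against 4722 bases for *Timp3*, 5960 against 3238 for *Mmp14* and 888 against 883 for *Timp1*. Order and shares depend on the length used, and transcript lengths were not tested. In iASPP WT, *Timp3* had the highest mean level per kilobase (33.0 ± 3.89, SD, n = 3), followed by *Mmp3* (25.9 ± 36.8), *Mmp14* (15.3 ± 1.90), *Timp2* (8.30 ± 1.13), *Timp1* (7.44 ± 9.26), *Mmp10* (3.54 ± 1.27), *Mmp13* (2.54 ± 1.48) and *Mmp9* (0.56 ± 0.51). Only the steps from *Mmp14* to *Timp2* and from *Mmp13* to *Mmp9* separated neighbours without overlap, and *Mmp3* ranged from 3.46 to 68.3, the latter in batch 3. In iASPP KO the order was *Mmp3* (33.7 ± 46.5), *Timp3* (17.2 ± 2.74), *Mmp14* (15.1 ± 6.00), *Mmp10* (10.3 ± 5.21), *Timp1* (9.90 ± 11.9), *Timp2* (9.09 ± 2.16), *Mmp13* (5.78 ± 5.06) and *Mmp9* (0.66 ± 0.24). Here only *Mmp13* and *Mmp9* did not overlap as neighbours, and *Mmp3* was above *Timp3* in 1 of 3 cultures, that of batch 3.

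Within the 3 inhibitors, *Timp3* made up 66.9%, 47.7% and 36.0% of the summed level per kilobase in iASPP KO of batches 1, 2 and 3, compared with 77.7%, 74.8% and 55.6% in iASPP WT. Its share was smaller in the iASPP-KO culture of every batch, and *Timp1* took up to 48% in batch 3. Within the 5 enzymes, *Mmp10* made up 23.1%, 39.3% and 7.05% in iASPP KO and 12.7%, 19.2% and 2.702% in iASPP WT. Its share was larger in the iASPP-KO culture of every batch and small in batch 3, where *Mmp3* held 66.7% and 73.6%. The summed level of the 5 enzymes relative to that of the 3 inhibitors was 0.845, 1.36 and 2.66 in iASPP KO and 0.532, 0.671 and 1.52 in iASPP WT. This ratio was higher in the iASPP-KO culture of each batch, and that of iASPP WT in batch 3 lay above 2 of the iASPP-KO cultures. The ratio rests on the gene lengths used and describes transcripts, not active enzyme.

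**Figure D5:**
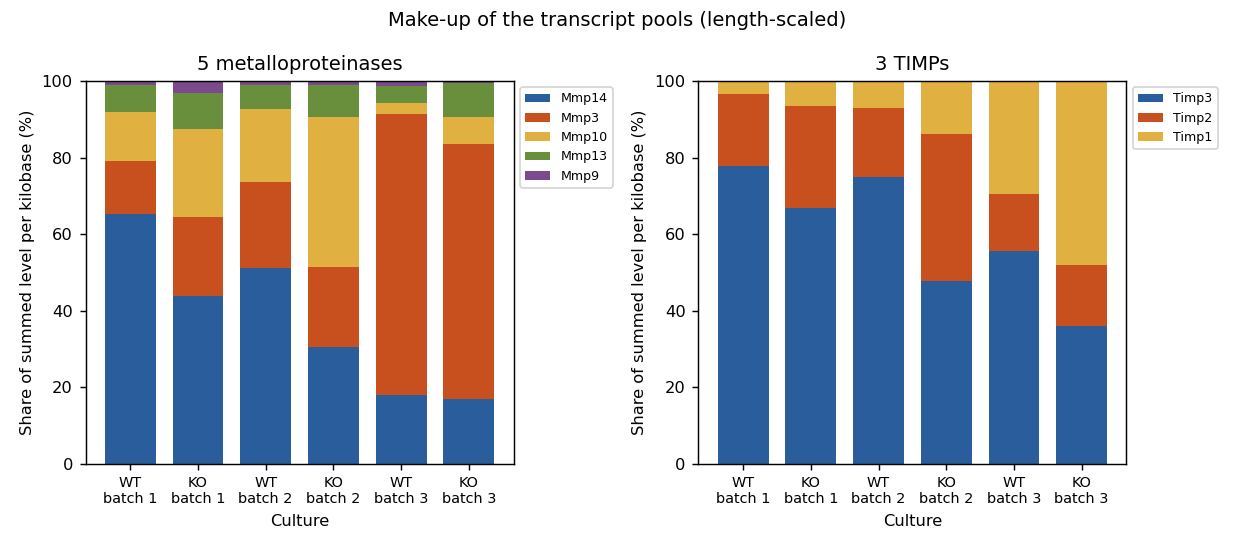
Share (%) of each gene in the summed level per kilobase of the 5 MMP genes (left) and the 3 TIMP genes (right) in each culture, ordered by batch. *Mmp10* (yellow, left) took a larger and *Timp3* (blue, right) a smaller share in the iASPP-KO culture of every batch, and *Mmp3* (orange, left) filled most of the MMP bar in batch 3.

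The 3 tested genes whose log2 CPM over the 6 libraries followed *Mmp10* most closely were *Nbr1* (Pearson's r = 0.994), *Mapk14* (r = 0.991) and *Ppp1r15a* (r = 0.986). *Nbr1* encodes an autophagy receptor, *Mapk14* the stress kinase p38α and *Ppp1r15a* a subunit that directs a phosphatase to eIF2α. Of these, *Ppp1r15a* rose in iASPP KO (log2 fold change 0.50, SE 0.12, adjusted p = 0.0458). Those closest to *Timp3* were *Zyx* (r = 0.992), *Fhl3* (r = 0.991) and *Eif6* (r = 0.989). *Zyx*, which encodes the focal adhesion protein zyxin, fell by 0.81 on the log2 scale (SE 0.13, adjusted p = 0.00837), and *Fhl3* by 0.88 (SE 0.16, adjusted p = 0.0174). *Mmp10* and *Timp3* themselves had r = −0.95. All these values describe 6 libraries that share batches and conditions, and with 14916 genes to choose from the closest ones are near 1 by selection. The correlated genes were chosen for following a gene called between the same conditions, so their own differences add no separate evidence.

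Other genes of both families gave no call. Of the 19 other MMP and TIMP genes, 14 were tested and 0 passed by edgeR, while 3 (*Mmp1b*, *Mmp12* and *Mmp19*) had an unadjusted p under 0.05, beside 16.7% of all genes tested. DESeq2 called 0 of the 8 to which it gave an adjusted p. *Mmp2*, the gelatinase that Mmp14 activates, had 4.01, 9.43 and 36.1 CPM in iASPP KO and 5.29, 8.98 and 34.0 CPM in iASPP WT. It was thus higher in batch 3 in both conditions, with a log2 fold change of −0.064 (SE 0.20, 95% confidence interval −0.50 to 0.37). *Mmp11* had at most 18.8 CPM and a log2 fold change of −0.37 (SE 0.30). *Timp4* was among the 5 genes too low to test.

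ADAM and ADAMTS enzymes are related metalloproteases, several of which TIMP3 inhibits. Of 27, 20 were tested, and 1 of them, *Adamts1*, an enzyme that cuts proteoglycans, fell while 0 rose. Of all genes tested, 1.95% fell and 2.17% rose. *Adamts1* had 261, 130.3 and 242 CPM in iASPP KO and 466, 297 and 492 CPM in iASPP WT. The conditions did not overlap for *Adamts1*, as for 10.7% of all genes tested. Its log2 fold change of −1.02 (SE 0.12, adjusted p = 0.00187) was near that of *Timp3*. *Adam17*, which sheds TNF and EGF receptor ligands from the cell surface, had 135, 165 and 124 CPM in iASPP KO and 138, 178 and 125 CPM in iASPP WT. Its log2 fold change was −0.052 (95% confidence interval −0.29 to 0.19). *Adam8*, *Adam10* and *Adam9* had log2 fold changes of 0.096, 0.070 and 0.33 and did not pass.

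Of 19 genes whose products activate or regulate MMPs, 17 were tested and 0 passed by edgeR, with 0 at an unadjusted p under 0.05. DESeq2 called 0 of the 14 to which it gave one. The most abundant were *Serpinb2*, an inhibitor of urokinase, *Plau*, which encodes urokinase, *Bsg*, which encodes the MMP inducer basigin, and the hyaluronan receptor *Cd44*. Their log2 fold changes were −0.29, 0.095, 0.18 and −0.055, with 95% confidence intervals that all included 0.

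Matrix proteins that MMPs cut were lower or not called. Of 22, 21 were tested, and 4 fell and 0 rose, beside 1.95% and 2.17% of all genes tested. The median log2 fold change of the 21 was −0.13 beside 0.006 over all genes tested. *Col7a1*, which encodes the collagen of the fibrils that anchor the epidermis, had 140.5, 73.0 and 201 CPM in iASPP KO and 359, 175 and 397 CPM in iASPP WT. It was lower in the iASPP-KO culture of every batch, although the batch 3 value exceeded the lowest iASPP-WT value, and its log2 fold change was −1.20 (SE 0.12, adjusted p = 0.00109). *Tnc*, the wound matrix protein tenascin-C, fell by 0.76 on the log2 scale (SE 0.14, adjusted p = 0.0166). *Col1a2* and *Col3a1*, both of which are also fibroblast markers, fell by 0.55 (SE 0.13, adjusted p = 0.0428) and 0.87 (SE 0.18, adjusted p = 0.0269), and their levels in batch 3 were 22.9 and 28.5 times those in batches 1 and 2. Of these 4 calls, 2 (*Col3a1* and *Col7a1*) were left without batch 1 and 1 (*Col7a1*) without batch 2, and 2 (*Col7a1* and *Tnc*) without batch 3, where 5 other matrix genes were called. *Col17a1*, which encodes a collagen of the hemidesmosome, and the laminin genes *Lama3* and *Lamb3* had log2 fold changes of −0.12, −0.35 and −0.40 and did not pass in the fit to all libraries.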

How the data were processed

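RNA was depleted of ribosomal RNA and sequenced as single reads of 42 bases from 6 libraries. Per the file headers and the submitters' processing notes, the authors trimmed reads with cutadapt 2.10, aligned them with STAR 2.7.3 to mm10 (GRCm38) and deposited unnormalized counts per gene name from featureCounts 2.0.0, by strand on GENCODE exons. The other columns used were the deposited gene length and the chromosome, start, end and strand of each gene. The authors' table of their own DESeq2 comparison (mean counts, fold changes and p-values) was not used. Groups came from the labels, and the number of columns of per-sample values not used was 0.

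The test was edgeR's (version 4.0.16, R 4.3.3) quasi-likelihood test (filterByExpr, TMM, glmQLFit and glmQLFTest with batch and condition, Benjamini-Hochberg adjustment over 14916 genes), and the steps were tested on simulated data. The SE is the log2 fold change over the square root of F. Intervals used a confidence level of 95%. Within-batch values used TMM-scaled log2 CPM with a prior count of 2, and their counting intervals were exact (Clopper-Pearson). PCR copies were not told apart, so they cover counting error only. Batch pairs come from the labels, each isolation having been divided between conditions. Deviations from the condition means correlated within batches (r = 0.302, 0.368 and 0.568). Between cultures of different batches r ran from −0.427 to 0.179. The labels do not say that batches came from separate litters. With batch in the fit, p-values rest partly on how a gene's difference between conditions varied over these batch pairs. That spread has 2 residual degrees of freedom and is drawn toward that of all genes (median prior degrees of freedom 8.17).

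The 8 genes, the other lists and the tests were chosen with earlier results of these data known. Named are all 8 genes, *Ppp1r13l*, each list's called genes and up to 4 of its most abundant others, and the 3 genes most correlated with each called gene. A gene this rule names is not reported here. *Mmp1b*, *Mmp8*, *Mmp27*, *Mmp1a*, *Mmp20*, *Mmp7* and *Timp4*, and some markers, were named after their values were seen. Gene IDs and transcripts came from GENCODE vM21 and promoters from RefSeq (GRCm38.p6, 7 of the 8 genes matched). Alternatives were no batch term, DESeq2 1.42.0, other scaling and filters, robust dispersion, each batch left out, a prior count of 0.5 and the motif TGACTCA alone. Python 3.11.15, pandas 2.3.3 and matplotlib 3.10.9 made tables and figures.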

Additional observations from a re-analysis of the deposited data

How the results depend on the processing

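Leaving the batch block out of the paired design (no replicate block) gave 0 calls among all genes in place of 614 (691 at an unadjusted p under 0.05, while DESeq2 with the batch term called 893), 0 among the 8 MMP and TIMP genes, 0 among ADAM and ADAMTS genes and 0 among matrix substrates. The log2 fold changes were then 1.54 for *Mmp10* and −0.94 for *Timp3*, with adjusted p = 0.973 for both, and −1.38 for *Ppp1r13l*. The SE of *Mmp3* was 1.32 without the block and 0.13 with it. Without the filter on low counts 1115 genes were called, with 1 among the other MMP and TIMP genes (*Mmp12*) and 7 matrix substrates, and *Mmp13* passed (1.01), as it did with robust dispersion (1.00) and DESeq2 (1.00). With each batch left out in turn, 291 (without batch 2) to 1455 (without batch 3) genes were called, 1 to 3 of the 8 genes, 0 to 1 other MMP and TIMP genes and 1 to 7 matrix substrates. The log2 fold changes ran from −0.032 (without batch 1) to 1.06 for *Mmp9*, 1.30 to 1.79 for *Mmp10*, 0.75 to 1.29 for *Mmp13*, −0.33 to 0.16 (without batch 1) for *Mmp14* and −0.19 (without batch 2) to 0.27 for *Timp2*. TGACTCA alone occurs in 4.46% of promoters. Over all alternatives the adjusted p ran from 4.1e-07 to 0.973 for *Mmp10*, 0.00426 to 0.973 for *Mmp13* and 4.1e-12 to 0.973 for *Timp3*. The cause of these shifts was not tested. Other scalings moved the median of all genes by less than 0.1, and no call among the 8 genes changed with them.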
